A study of Mus musculus with 4 samples.

Results

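Srebf2, which encodes SREBP-2, was examined with its inhibitor gene Insig1 and 8 genes of cholesterol synthesis enzymes in mouse liver. The 10 genes were listed by name, with earlier results of these data known, and were followed along the pathway. Every probe set that the platform annotation gives to 1 of them alone was taken. That gave 24 probe sets among 45037, and 10 genes among 18193. All 10 had at least 1 probe set. Liver RNA of C57BL/6 mice was compared between wild type (WT) and mice with a liver-specific knockout of Baf60a (Baf60a LKO), with 2 Affymetrix arrays per group. BAF60a is encoded by Smarcd1 and belongs to SWI/SNF, a complex that moves nucleosomes. Mice of both groups ate a high-fat diet for 10 weeks from 6 weeks of age, and both were fasted overnight before the liver was taken. Each array carried its own RNA pool, so a replicate is a pool of RNA, and p-values measure the spread between pools. The number of mice per pool, and the Cre driver of the knockout, are not given in the sources used here.

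SREBP-2 is made as a membrane protein of the endoplasmic reticulum, where the escort protein SCAP and the INSIG proteins hold it while sterols are plentiful. When sterols run low it moves to the Golgi, is cut by proteases there, and its free end enters the nucleus. There it turns on the genes of nearly every step from acetyl-CoA to cholesterol, and Insig1 among its other targets. In the liver this control sets how much cholesterol is made, and feeding, fasting and dietary cholesterol are known to move it.

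The targeted gene was looked at first. The brighter probe set of Smarcd1 read 5.62 and 5.88 in the WT arrays, against 5.34 and 5.30 in the Baf60a LKO arrays. These are log2 values from robust multi-array average (RMA), as are all levels given here. Its second probe set stayed between 2.70 and 2.87. The difference on the brighter one was -0.43 ± 0.14 (standard error of the limma fit, as for every difference here), with adjusted p = 0.564. Neither probe set could be placed inside or outside the deleted part, so they are no check of genotype. Hepatocyte markers were the brightest of the cell type lists, at 10.8 to 14.2 over 7 genes, with a median difference of 0.07. The 5 measured cholangiocyte markers were all higher in Baf60a LKO, with a median difference of 0.45, and none passed. Their single levels were 3.22 to 6.02, and their summed level (log2) was 6.39 and 6.60 in WT and 7.05 and 7.42 in Baf60a LKO. Epcam differed by 1.17 ± 0.21, Cldn7 by 0.89 ± 0.16, Krt19 by 0.39 ± 0.14 and Sox9 by 0.38 ± 0.19. The median was the value of Krt7, which stood above background on only 2 of the 4 arrays. Of 4 measured neutrophil markers 3 were higher, with a median of 0.35. All 4 measured adipocyte markers were lower, with a median of -0.27, and 2 of them did not stand above background on any array. All 6 stellate cell markers were lower too, with a median of -0.06, and 5 of 6 endothelial markers, with a median of -0.11. Markers of Kupffer cells and of lymphocytes were split, with 3 lower and 3 higher in each list. The part of other cells in the differences below was not tested, and in pieces of liver fewer cells of a type and less RNA per cell cannot be told apart.

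Promoter sequence is shown for Hmgcs1, Idi1 and Cyp51, whose levels were lower in Baf60a LKO, and for Insig1 and Dhcr7, whose means were not. RefSeq promoter windows on GRCm38.p6, from 250 bases before to 50 after a start site, were found for 7 of the 10 genes, in 9 windows. Only a part of the bases before the start is printed for each gene, 5′ to 3′ on the gene's strand, and the lengths differ. The stretches of Hmgcs1, Idi1 and Cyp51 end at the last base before the start. The stretches of Insig1 and Dhcr7 stop short of it. Capitals mark 3 motifs searched on both strands: the SREBP site core TCACNCCAC, the NF-Y site CCAAT, and the Sp1 site GGGCGG. NF-Y and Sp1 are general factors known to work beside SREBPs. The stretches lie at chr13:119690171-119690350 (plus strand, Hmgcs1), chr13:8885506-8885605 (plus strand, Idi1) and chr5:4104698-4104847 (minus strand, Cyp51). Those of Insig1 and Dhcr7 lie at chr5:28071192-28071311 and chr7:143823007-143823106, both on the plus strand. Dhcr7 has 3 start sites in the table, and the first is shown.
Hmgcs1: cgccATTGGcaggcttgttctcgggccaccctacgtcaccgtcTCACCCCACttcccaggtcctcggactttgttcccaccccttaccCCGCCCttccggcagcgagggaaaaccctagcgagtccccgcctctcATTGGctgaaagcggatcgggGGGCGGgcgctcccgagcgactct
Idi1: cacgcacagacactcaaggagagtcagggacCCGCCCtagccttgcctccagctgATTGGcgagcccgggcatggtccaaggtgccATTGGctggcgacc
Cyp51: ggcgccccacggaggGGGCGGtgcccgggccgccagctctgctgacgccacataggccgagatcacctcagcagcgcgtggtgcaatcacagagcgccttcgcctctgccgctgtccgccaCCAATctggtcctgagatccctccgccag
Insig1: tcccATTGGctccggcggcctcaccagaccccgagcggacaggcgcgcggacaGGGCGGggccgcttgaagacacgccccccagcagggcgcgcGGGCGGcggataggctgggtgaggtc
Dhcr7: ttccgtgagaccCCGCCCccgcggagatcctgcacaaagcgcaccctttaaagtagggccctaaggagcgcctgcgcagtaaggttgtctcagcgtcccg
The SREBP site core was found once, in Hmgcs1, where it begins 137 bases before the start site. It occurs in 1.24% of the 32851 windows of the table, and in none of the other 6 genes' windows searched. CCAAT, on either strand, was found in all 7 genes, in 7 of their 9 windows, against 37.4% of all windows. GGGCGG was found in 8 of the 9, against 35.7%. Of 11 other cholesterol synthesis genes with windows, 10 held CCAAT, 10 held GGGCGG and 0 held the SREBP site core. CCAAT and GGGCGG are therefore not particular to the genes described here. The motifs did not overlap in the printed stretches. Some matches in the windows lie outside these stretches, among them an Sp1 site of Insig1 and an NF-Y site of Hmgcs1. Numbers and positions of motifs therefore cannot be compared between genes from the printed bases alone. A match here is a description of the letters, and no match says only that these letters are not in the window.

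Among the 10 genes, Fdps, Hmgcs1 and Idi1 differed most and were lower in Baf60a LKO, with log2 differences of -1.14 to -0.86. Cyp51 followed at -0.82. Fdft1 and Sqle were lower by less, the probe sets of Lss disagreed in sign, and Dhcr7 was higher. Insig1 and the brighter probe set of Srebf2 had overlapping groups. No probe set of the 10 genes passed the threshold of adjusted p under 0.05 (limma, Benjamini-Hochberg over all 45037 probe sets), so 0 of 24 were called, against 0.187% of all probe sets. At an unadjusted p under 0.05, 9 of the 24 were lower, against 3.78% of all probe sets, and 2 were higher, against 4.39%. In all, 20 of the 24 had a lower mean and 4 a higher one, with a median of -0.29. Probe sets of 1 gene read the same RNA and are not independent. Both Baf60a LKO arrays lay below both WT arrays on 14 of the 24, against 19.4% of all probe sets.

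**Figure D1:**
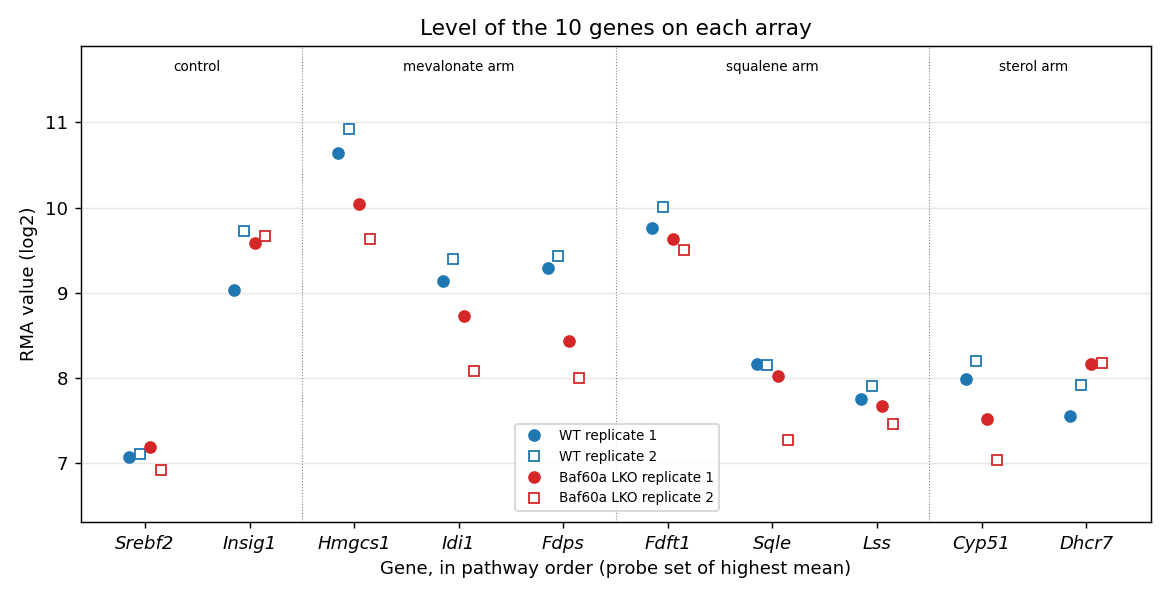
RMA value (log2) of each of the 10 genes on the 4 arrays, for the probe set with the highest mean, in pathway order. Blue is WT, red is Baf60a LKO, filled circles are replicate 1 and open squares replicate 2. Red lies below blue without overlap from Hmgcs1 to Cyp51, and above it for Dhcr7.

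Srebf2 encodes the activator. Its brighter probe set, 1452174_at, read 7.06 and 7.10 in WT and 7.18 and 6.91 in Baf60a LKO. The knockout arrays lay on both sides of the WT pair, and the difference was -0.03 ± 0.14 with a 95% interval of -0.39 to 0.32. Its other probe set, 1426744_at, read 6.08 and 6.03 in WT and 5.87 and 5.85 in Baf60a LKO. Here both knockout arrays were lower, by -0.20 ± 0.12 (limma, adjusted p = 0.676). Without Baf60a LKO replicate 2 the brighter probe set turned to 0.10, and the other stayed at -0.19.

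Insig1 encodes the INSIG protein that retains SREBP-2 and that SREBP-2 itself induces. It was read by 1 probe set, which gave 9.03 and 9.72 in WT, and 9.58 and 9.67 in Baf60a LKO. WT replicate 1 stood lower than the other 3 arrays, and WT replicate 2 was the highest of the 4. The difference was 0.25 ± 0.24 (limma, adjusted p = 0.775), with a 95% interval of -0.34 to 0.84. Without WT replicate 1 it was -0.09.

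Hmgcs1 encodes the cytosolic enzyme that joins acetyl-CoA and acetoacetyl-CoA into HMG-CoA. Its brightest probe set, 1433443_a_at, read 10.6 and 10.9 in WT and 10.0 and 9.63 in Baf60a LKO. The groups were separated by a gap of 0.60 between the nearest arrays. The difference was -0.95 ± 0.19, a level 1.93-fold lower (limma, adjusted p = 0.297, 95% interval -1.42 to -0.48). Of the other probe sets, 1433444_at differed by -0.90, 1433445_x_at by -0.84 and 1433446_at by -0.94, each with both knockout arrays below both WT arrays. The fifth, 1441536_at, lay between 2.38 and 2.94, where background lies, and differed by -0.23 with overlapping groups. Leaving out 1 array in turn gave -1.16 to -0.74 on the brightest probe set.

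Idi1 encodes the isomerase that turns isopentenyl diphosphate into its allylic form, the starter of chain building. On 1451122_at it read 9.14 and 9.40 in WT and 8.73 and 8.08 in Baf60a LKO. Replicate 2 of the knockout was the lowest, and the 2 knockout arrays differed from each other more than the WT arrays did. The difference was -0.86 ± 0.24 (limma, adjusted p = 0.496), and -0.54 without Baf60a LKO replicate 2. The second probe set, 1423804_a_at, read 6.40 and 6.96 in WT and 6.13 and 5.40 in Baf60a LKO. It showed the same order of arrays and a difference of -0.91 ± 0.30, or -0.55 without Baf60a LKO replicate 2.

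Fdps encodes the synthase of farnesyl diphosphate, the branch point between sterols and other isoprenoids. On 1423418_at it read 9.29 and 9.43 in WT and 8.44 and 8.0 in Baf60a LKO. The gap between the nearest arrays of the groups was 0.85, the widest among the 24 probe sets. The level was 2.20-fold lower, a difference of -1.14 ± 0.18 (limma, adjusted p = 0.182, 95% interval -1.58 to -0.69). It passed under 1 of 14 other settings, a trended and robust eBayes (adjusted p = 0.0499), and its adjusted p ran from 0.0499 to 1.00 over these. Its second probe set, 1438150_at, stayed between 1.86 and 2.01 on all arrays and was not above background on any. Averaging the 2 probe sets gave -0.59 (adjusted p = 0.136).

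**Figure D2:**
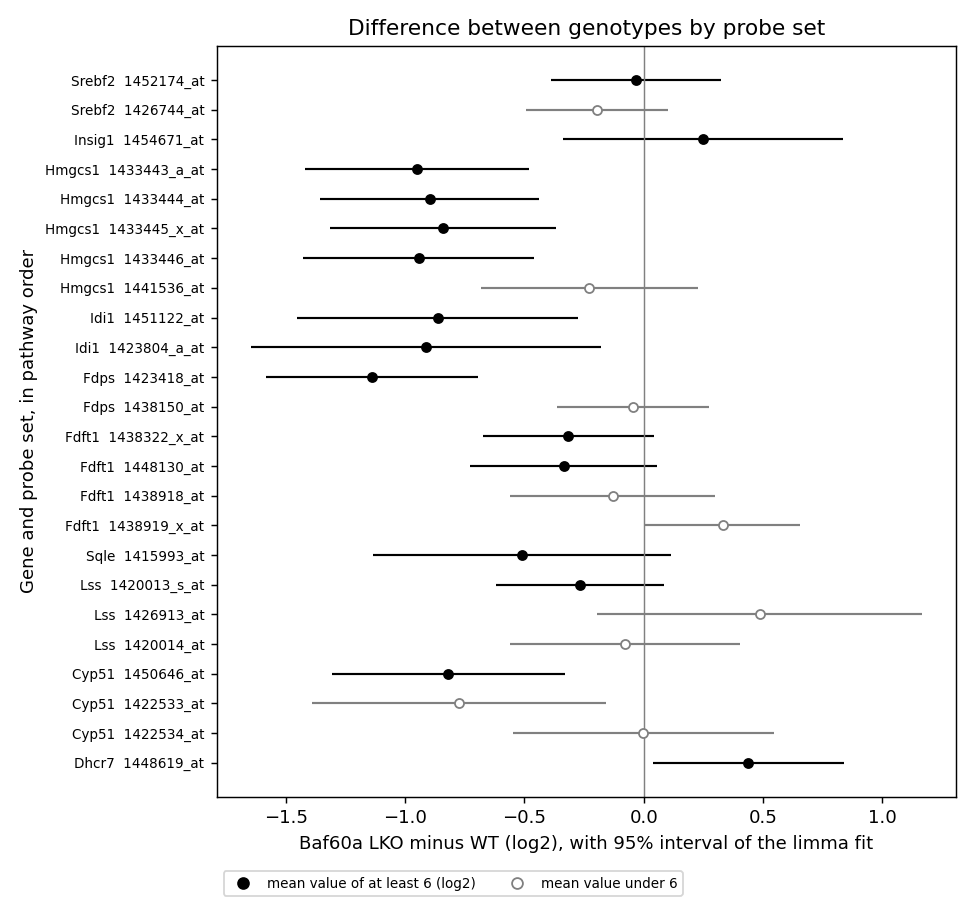
Baf60a LKO minus WT on the log2 scale for all 24 probe sets in pathway order, with the 95% interval of the limma fit, not adjusted for the number of probe sets. Filled points have a mean of at least 6 over the arrays. The 4 bright probe sets of Hmgcs1, both of Idi1, the brighter one of Fdps and the 2 brighter ones of Cyp51 have intervals below 0. Those of Dhcr7 and the dim 1438919_x_at of Fdft1 lie above 0.

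The squalene arm showed smaller differences. Fdft1, squalene synthase, commits farnesyl diphosphate to sterols. Its brightest probe set, 1438322_x_at, read 9.76 and 10.0 in WT and 9.63 and 9.50 in Baf60a LKO. The knockout arrays lay below the WT arrays by a narrow gap of 0.13. The difference was -0.32 ± 0.14 (limma, adjusted p = 0.633), and -0.34 ± 0.16 on 1448130_at. The first became -0.19 without WT replicate 2, and the other -0.20 when the second knockout array was left out. The other 2 probe sets were dim: 1438918_at lay between 3.35 and 3.75 and differed by -0.13, and 1438919_x_at lay between 2.90 and 3.36 and differed by 0.33.

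Sqle encodes squalene epoxidase, an oxygen-using step that is known to limit the later pathway. Its single probe set read 8.16 and 8.15 in WT and 8.02 and 7.27 in Baf60a LKO. The first knockout array was close to WT and the second was well below it. The difference was -0.51 ± 0.25 (limma, adjusted p = 0.649), and -0.13 without Baf60a LKO replicate 2 against -0.89 without replicate 1.

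Lss encodes the cyclase that folds the epoxide into lanosterol, the first sterol. Its probe sets disagreed. The brightest, 1420013_s_at, read 7.75 and 7.90 in WT and 7.66 and 7.45 in Baf60a LKO, lower by a gap of 0.09 between the nearest arrays. Its difference was -0.27 ± 0.14 (limma, adjusted p = 0.655), and -0.16 without Baf60a LKO replicate 2. The next, 1426913_at, read 4.78 and 5.60 in WT and 5.77 and 5.58 in Baf60a LKO, so that WT replicate 1 stood apart below 3 similar arrays. It differed by 0.49 ± 0.28, and by 0.08 without WT replicate 1. The third, 1420014_at, differed by -0.08 ± 0.19, and the mean of the 3 by 0.05.

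Cyp51 encodes the demethylase that makes the first change to lanosterol on the main route. On 1450646_at it read 7.98 and 8.20 in WT and 7.51 and 7.03 in Baf60a LKO. Both knockout arrays were lower, with a gap of 0.47. The level was 1.77-fold lower, a difference of -0.82 ± 0.20 (limma, adjusted p = 0.415). The dimmer 1422533_at read 4.98 and 5.67 in WT and 4.70 and 4.41 in Baf60a LKO, a difference of -0.77 ± 0.25, or -0.43 without WT replicate 2. The dimmest, 1422534_at, lay between 2.93 and 3.50 and differed by -0.0012, with a sign that turned under all 3 other normalizations.

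Dhcr7 encodes the reductase of the final step to cholesterol on one of its routes. Its single probe set read 7.54 and 7.91 in WT and 8.16 and 8.18 in Baf60a LKO. Both knockout arrays were above both WT arrays, by a gap of 0.24. The difference was 0.44 ± 0.16, a level 1.36-fold higher (limma, adjusted p = 0.590, 95% interval 0.04 to 0.84). It was 0.25 without WT replicate 1 and 0.62 without WT replicate 2. The difference between Dhcr7 and the other enzymes was not tested.

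**Figure D3:**
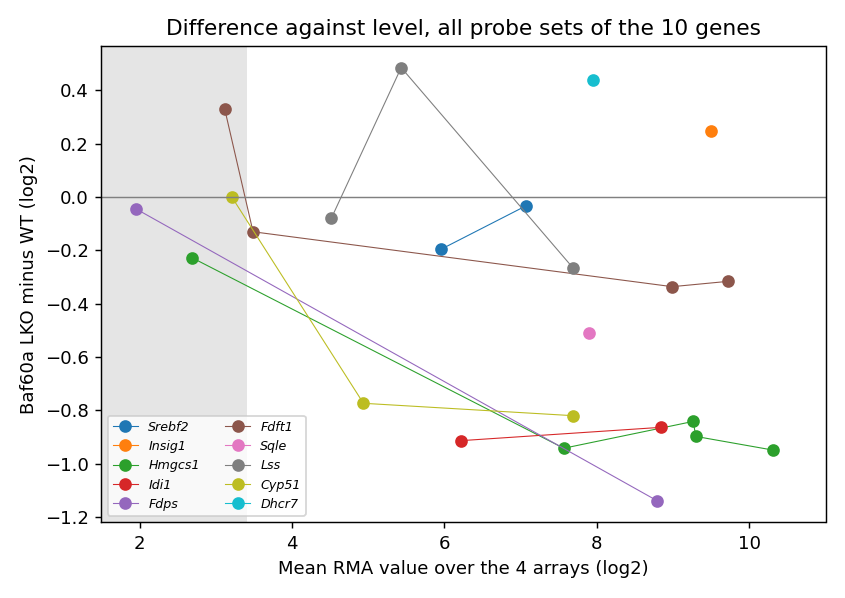
Baf60a LKO minus WT against the mean RMA value over the 4 arrays, both log2, for all 24 probe sets, with the probe sets of a gene joined by a line. The grey band reaches the highest 95th percentile of bacterial control probe sets on any array, 3.42, and the probe sets of Hmgcs1, Fdps, Fdft1 and Cyp51 within it differ by -0.23 to 0.33. The bright probe sets of Hmgcs1, Idi1, Fdps and Cyp51 lie lowest.

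By gene, on the probe set of highest mean, 8 of 10 were lower, with a median difference of -0.41. These 8 include Srebf2, at -0.03 with overlapping groups and 0.10 without Baf60a LKO replicate 2. They also include Lss, which turned to 0.05 as the mean of its probe sets. Over all 18193 genes 9073 were lower, and over the 7840 with a mean of at least 6 the median was 0.08. None of the 10 was called, against 0.319% of all genes, while 4 were lower and 1 was higher at an unadjusted p under 0.05, against 4.06% and 5.43% of all genes. In 7 of the 10 both knockout arrays lay below both WT arrays, against 19.6% of genes, and in 1 they lay above, against 22.8%. As the genes were chosen with earlier results of these data known, these shares describe them and are no independent test. The spread within groups had a direction too. WT replicate 1 lay below WT replicate 2 in 9 of the 10 genes (51.3% of all genes), and Baf60a LKO replicate 2 lay below replicate 1 in 8 of the 10 (53.7% of all genes). The median over the 10 genes was -0.20 when the second knockout array was left out, and -0.64 when the first was. It was -0.47 without WT replicate 1, whose values correlated less with the other arrays (0.987 to 0.991) than those did among themselves (0.993 to 0.996, all across probe sets).

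Around these genes, 7 lists of 75 genes were described, also chosen with earlier results of these data known. Of the 75 genes, 62 were measured and 13 are not analysed here. None of the 62 was called by limma. At an unadjusted p under 0.05, 6 were lower and 2 higher, against 4.06% and 5.43% of all genes. Of 10 other measured synthesis enzymes 6 were lower, with a median of -0.08 (0.039 without Baf60a LKO replicate 2), and 4 had both knockout arrays below both WT arrays, against 19.6% of all genes. Msmo1, which oxidises methyl groups off the sterol ring, read 10.2 and 10.7 in WT and 10.1 and 9.39 in Baf60a LKO and differed by -0.69 ± 0.27. Without Baf60a LKO replicate 2 that was -0.34, and without replicate 1 it was -1.05. Nsdhl, the dehydrogenase that acts after it, read 8.50 and 8.63 in WT and 8.06 and 7.70 in Baf60a LKO and differed by -0.68 ± 0.16. The sterol reductase gene Tm7sf2 differed by -0.42 ± 0.15 and the isomerase gene Ebp by -0.09 ± 0.12. For Ebp the gap between the nearest arrays of the groups was only 0.0076. The other 6, Mvk, Pmvk, Mvd, Lbr, Hsd17b7 and Sc5d, had overlapping groups and differences of -0.11 to 0.26.

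Among 11 measured genes of SREBP processing and sterol-driven degradation, 9 were higher and Insig2 stood out as lower. Insig2 encodes the second INSIG protein, which SREBP-2 does not induce, and its liver transcript is known to rise in fasting. On 1417982_at it read 10.5 and 10.2 in WT and 9.19 and 9.54 in Baf60a LKO, with no overlap. The difference was -0.97 ± 0.18, 1.96-fold lower (limma, adjusted p = 0.250), and -1.14 to -0.79 with 1 array left out. Its other probe sets, 1417981_at and 1417980_a_at, differed by -0.95 ± 0.17 and -0.83 ± 0.14. Srebf1, the gene of SREBP-1, read 10.0 and 9.68 in WT and 10.4 in both Baf60a LKO arrays, higher by 0.50 ± 0.16, or by 0.32 without WT replicate 2. The ubiquitin ligase gene Rnf139 and the membrane protein gene Erlin1, both of the degradation machinery of the endoplasmic reticulum, were each higher by 0.31, with standard errors of 0.13 and 0.15. Without WT replicate 1 they were at 0.21 and 0.14. The list median was 0.16, and 7 of the 11 had both knockout arrays above both WT arrays, against 22.8% of all genes. The genes of this list all had means of at least 6. Of the 7840 genes at that level, 2743 had both knockout arrays above both WT arrays. Higher means were found in 5291 of them, and their median difference was 0.08. After quantile normalization Rnf145 turned to -0.034 and Aup1 to -0.013.

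Of 6 measured SREBP-2 targets outside the synthesis pathway, 5 were higher and 1 was lower, with a median of 0.08 that turned to -0.0097 after loess. The lower one was Tmem97, which encodes a sterol-responsive membrane protein. It read 8.61 and 8.64 in WT and 7.97 and 7.92 in Baf60a LKO, with replicates close together in both groups. The difference was -0.68 ± 0.12 (limma, adjusted p = 0.234), and -0.70 to -0.65 with 1 array left out. Mmab, an enzyme gene of vitamin B12 metabolism that neighbours Mvk, differed by 0.20 ± 0.13 on its brightest probe set. Its other probe sets had overlapping groups. Of these 1452467_at differed by 0.01 ± 0.13, 1452468_s_at by -0.10 ± 0.21 and the dim 1443498_at by -0.08 ± 0.16.

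The 12 measured genes of non-sterol isoprenoids, which use farnesyl diphosphate or its precursors, ran from -0.08 to 0.17, with a median of 0.05 that turned negative after quantile or loess normalization. Rce1 and Pggt1b, of the processing of prenylated proteins, differed by 0.17 ± 0.13 and 0.12 ± 0.13. Dhdds, of dolichol synthesis, differed by 0.09 ± 0.12, which also turned. Its dimmer probe sets disagreed in sign, at -0.18 ± 0.13 (1425520_a_at) and 0.23 ± 0.15 (1422548_at). The 8 measured genes of the oxysterol receptor LXR, its targets and sterol esterification had a median of 0.12, and Lpcat3, a phospholipid enzyme gene, differed by 0.15 ± 0.13. The 2 measured genes of ketone body synthesis, Bdh1 and Acat1, differed by 0.04 and -0.03. Of 13 SREBP-1 targets of fatty acid synthesis, 7 were higher and 6 lower, with a median of 0.04 (-0.019 without Baf60a LKO replicate 2). Acacb differed by -0.51 ± 0.22, Me1 by -0.42 ± 0.13, Acly by 0.31 ± 0.14 and Fads1 by 0.44 ± 0.17. Without WT replicate 2 Acacb was at -0.22, and without WT replicate 1 Fads1 was at 0.28. The dimmer probe set of Fads1, 1440444_at, differed by 0.99 ± 0.24 without overlap. That of Acacb, 1445754_at, differed by -0.11 ± 0.16 with overlapping groups.

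**Figure D4:**
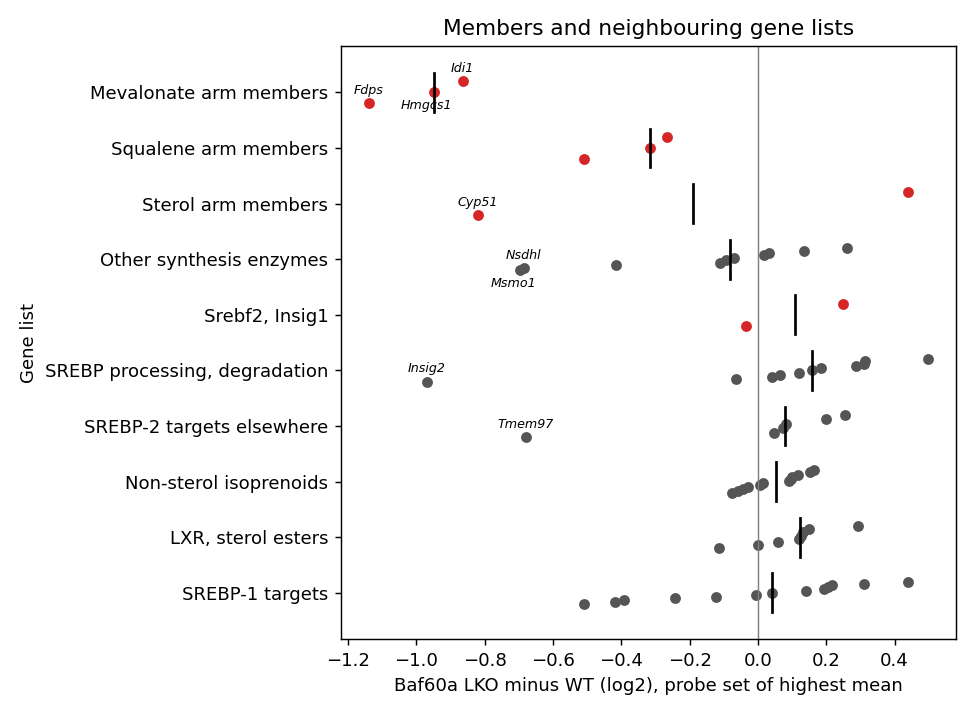
Baf60a LKO minus WT (log2) for each measured gene on its brightest probe set, by list, with a black bar at the list median. The ketone body genes are not drawn. Red points are the 10 genes described here and grey points their neighbours. Insig2 and Tmem97 lie at -0.97 and -0.68, apart from the rest of their lists.

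Likeness to the mean pattern of the 10 genes was measured as the distance between centred log2 values over the 4 arrays, among 7830 other genes with a mean of at least 6. The nearest were Paqr7 (distance 0.0694), Tm7sf2 (0.0874), Cyp26b1 (0.0920), Aacs (0.125) and Hspb1 (0.131). These 5 differed by -0.47 to -0.39 between genotypes, a narrow range that follows from how they were picked. Among them, Tm7sf2 is in the list of other synthesis enzymes described above. Nsdhl stood at rank 107 and Msmo1 at rank 802. The other 6 synthesis enzymes with a mean of at least 6 ranked from 1412 (Ebp) to 7089 (Lbr). The mean pattern averages the lower genes with Insig1 and Dhcr7, which were higher. The distance also counts the size of a difference, so a gene much lower than this mean ranks far from it. Nsdhl and Msmo1 differed by -0.68 and -0.69, more than the 5 nearest, so their ranks do not show an unlike direction.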

How the data were processed

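Liver RNA pools of 2 WT and 2 Baf60a LKO groups of mice were measured on 4 arrays, and each sample's title gave its genotype group. The deposited values are log2 expression per probe set, and RMA, affy and limma are named in the submitters' processing notes, without versions. RMA corrects background, normalizes probe intensities by quantiles and summarises probes, and it compresses differences at low levels. The arrays hold no read depth, and their number limits the precision. Background was gauged by the 95th percentile of 41 bacterial control probe sets, 3.02 to 3.42 on the 4 arrays.

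The table holds 45101 probe sets, of which 64 are controls that entered no test. The platform annotation named 1 gene for 34945, several for 932 and did not list 9160, and symbols were updated by Entrez number in the RefSeq table of GRCm38.p6 (34741 matched). One fit over 45037 probe sets used limma 3.58.1 in R 4.3.3 (lmFit, eBayes, 2-sided, Benjamini-Hochberg), with 2 residual and 3.74 prior degrees of freedom. A gene was represented by its probe set of highest mean. The fit was tested on simulated data. Figures used matplotlib 3.10.9 in Python 3.11.15.

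The members and lists were chosen with earlier results of these data known. Named are all members, Smarcd1, up to 4 genes of each list with non-overlapping groups and the largest difference, and the 5 nearest in pattern. Bdh1, Acat1 and the 6 other enzymes with overlapping groups were named after their values were seen. Alternatives were 3 normalizations, the upper 50% by level, a replicate block, a trended and robust eBayes, a threshold of 0.10, other uses of probe sets, and leaving out each array.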

Additional observations from a re-analysis of the deposited data

How the results depend on the processing

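With 4 arrays no member was called, and 1 member probe set and 1 member gene, Fdps, were called with a trended and robust eBayes (-1.14). All other settings called 0 of the member probe sets and 0 member genes, and all called 0 genes of the other lists. The median of the 10 genes was -0.64 to -0.20 with 1 array left out, -0.31 with averaged probe sets and -0.49 to -0.38 under the 3 other normalizations. The number lower was 7 to 9 over all settings.

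Of all probe sets 84 were called, 146 with array medians subtracted, 162 after cyclic loess, 139 after quantile normalization, 173 with a trended and robust eBayes, 143 at a threshold of 0.10, and 0 without any 1 array. An array left out leaves 1 residual degree of freedom and a lone array assumed to vary like the other group. The replicate numbers were not shown to pair the samples (correlation of deviations 0.15), and with the replicate number as a block 4 probe sets and 0 members were called.

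Some signs turned, also for Lss (-0.27) and Insig1 (0.25). Cyp51 on 1422534_at was 0.031 with medians subtracted, 0.074 after loess or quantile normalization and -0.29 to 0.28 with 1 array left out. Fdps on 1438150_at was 0.011 after loess and -0.12 to 0.031 with 1 array left out. Lss was 0.047 as a mean of its probe sets and 0.49 when those ending in _x_at or _s_at were dropped. With 1 array left out Lss on 1420014_at ran from -0.31 to 0.15, Srebf2 from -0.17 to 0.10, Insig1 from -0.095 to 0.59 and Fdft1 on 1438918_at from -0.33 to 0.070. Medians after loess were -0.0097 for SREBP-2 targets elsewhere, -0.045 for non-sterol isoprenoids and -0.021 for ketone body genes. After quantile normalization the last 2 were -0.045 and -0.013. Dhdds was -0.010 after loess and -0.013 after quantile normalization. With 1 array left out, medians were -0.18 to 0.039 for other synthesis enzymes, -0.019 to 0.19 for SREBP-1 targets, -0.0069 to 0.075 for non-sterol isoprenoids and -0.036 to 0.047 for ketone body genes. The causes were not tested.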
